A study of Mus musculus with 8 samples.

Results

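The MIF cytokines and their receptors are a small signalling family: the cytokine gene Mif, its paralogue Ddt, and the receptor genes Cd74, Cd44 and Cxcr4. Members were the rows of the authors' deposited table whose gene symbol equals 1 of these 5 names, which gave 5 transcript clusters (the probe groups of the array), 1 per gene, of 41345 clusters in all. The family was selected on the fold difference and p-value of Mif between the groups compared here, so the members' differences in that comparison are given as a description. Any p-value quoted for Mif is of the kind that picked it and is no test of it. Endometrium, the inner lining of the uterus, was scraped from CBA x C57Bl/6 F1 (CBAF1) females 8 h after mating with Balb/c males, at a mating set for the night after proestrus. The males were either Intact, which exposes the female to seminal fluid, or SVX/VAS, a name the labels do not expand, which does not. There were 4 arrays in a group (Affymetrix Mouse Gene 2.0 ST), each hybridised with the RNA of 4 females combined, so a replicate is a pool and not an animal. All females of both groups had mated, and unmated animals were not analysed here.

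MIF, macrophage migration inhibitory factor, is a small protein held ready-made in many cells, epithelium included, and released on inflammatory or hormonal signals. It binds CD74, the invariant chain of MHC class II molecules, which signals through CD44, and it also acts on the chemokine receptors CXCR2, CXCR4 and ACKR3. It raises inflammatory cytokine output and counters glucocorticoids, and in the uterus it is known from epithelium and from the leukocytes that enter the tissue around mating and implantation. D-dopachrome tautomerase, the product of Ddt, shares the MIF fold and the CD74 receptor.

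Mif and Ddt lie close together on chromosome 10, at 40.9 and 40.7 cM in the annotation of the authors' deposited table, and 4 genes separate them in the order of the RefSeq gene table of assembly GRCm38.p6. Because 1 member of this pair differed between the groups and the other did not separate them, the bases immediately upstream of both starts are shown, 5′ to 3′ on the minus strand, from RefSeq on GRCm38.p6 (chr10:75860278-75860527 for Mif and chr10:75773375-75773624 for Ddt). Capitals mark exact matches, on either strand, to a cAMP response element (TGACGTCA), a GC box (GGGCGG), the core of a hypoxia response element (ACGTG) and a CCAAT box (CCAAT).
Mif: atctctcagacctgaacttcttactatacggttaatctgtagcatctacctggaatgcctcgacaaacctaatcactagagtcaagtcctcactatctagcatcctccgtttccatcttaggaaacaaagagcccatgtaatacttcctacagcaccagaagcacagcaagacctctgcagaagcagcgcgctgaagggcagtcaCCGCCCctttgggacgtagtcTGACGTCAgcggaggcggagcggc
Ddt: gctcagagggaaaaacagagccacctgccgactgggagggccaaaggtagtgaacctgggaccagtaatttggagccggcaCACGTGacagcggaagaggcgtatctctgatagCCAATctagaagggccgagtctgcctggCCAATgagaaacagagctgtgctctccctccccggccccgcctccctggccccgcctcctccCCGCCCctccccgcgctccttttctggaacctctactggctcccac

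The Mif stretch held the cAMP response element at position -24, counted to its first base from the transcription start. Of 32851 promoter entries, 1.55% hold these letters within the same 250 bases. The Ddt stretch did not hold them. A GC box stood at -45 in Mif and at -46 in Ddt, and 32.7% of the entries hold at least 1. The Ddt stretch also held 2 CCAAT boxes, at -136 and -108, which 33.8% of the entries hold, and the palindrome CACGTG, whose overlapping core matches begin at -169 and -168. The 250 bases of Mif held no such core, which 16.6% of the entries hold there. Downstream of the Mif start, 1 core match began at position 30, and its surroundings are shown because hypoxia is a known inducer of MIF (chr10:75860236-75860256, minus strand).
Mif downstream of the start: agctgggtCACGTagctcagg

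The deposited values are log2 intensities, already background-corrected and summarised by the authors. The 8 array medians lay between 5.35 and 5.41, and the lowest correlation between any arrays was 0.971. Markers of the labelled tissue were measured, with all 6 epithelial and all 7 stromal marker genes on the array. The mean log2 value of the epithelial list ran from 10.10 to 10.46 in Intact pools and from 10.15 to 10.33 in SVX/VAS pools, and that of the stromal list from 8.06 to 9.07 and from 8.56 to 9.18. Smooth muscle markers, 5 genes of the muscle wall that the dissection set out to discard, had mean log2 values of 7.26 to 8.61 in Intact pools and 7.50 to 8.28 in SVX/VAS pools. The lowest stromal and the lowest muscle means both belonged to Intact replicate 1. Over 13 lists of cell type markers, 0 of 63 genes measured passed the adjusted threshold in limma and 6 had an unadjusted p under 0.05. Mean levels of the leukocyte, dendritic cell, B cell, T and NK cell, endothelial, red cell, sperm and seminal vesicle lists overlapped between the groups. Single genes could still stand apart. Prm1 of the sperm list had a log2 difference of 0.39 (limma adjusted p = 0.22). Krt18 of the epithelial list had -0.41 (limma adjusted p = 0.20), and the groups overlapped for neither gene. In a limma fit across all clusters, 34 of 41345 (0.0822%) passed a Benjamini-Hochberg adjusted p of 0.05, 21 higher (0.0508%) and 13 lower (0.0314%) after Intact mating. The groups did not overlap in 3.37% of clusters with Intact higher and in 4.81% with Intact lower, and 11.9% of clusters had an unadjusted limma p under 0.05.

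Mif, the cytokine itself (transcript cluster 17241962), had log2 values of 10.69, 10.67, 10.73 and 10.80 in Intact replicates 1 to 4 and of 10.05, 10.06, 10.01 and 9.91 in SVX/VAS replicates 1 to 4. Every Intact pool lay above every SVX/VAS pool, and the gap of 0.61 between the groups was wider than the range of 0.13 within Intact pools and 0.15 within SVX/VAS pools. The mean log2 value was 10.72 ± 0.056 (SD, n = 4) after Intact mating and 10.01 ± 0.069 (SD, n = 4) after SVX/VAS mating. The log2 difference was 0.71 (SE 0.084, 95% interval 0.52 to 0.91), a ratio of 1.64-fold. Fewer cells that contain a transcript and less of it per cell cannot be told apart in such whole-tissue RNA, for Mif or any other gene here.

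Mif was picked on its ratio of 1.641 and unadjusted p-value of 3.59e-06 in the authors' deposited table. The limma fit of the same values gave it an adjusted p = 0.033 (Benjamini-Hochberg), which describes that selection again and supports nothing. Leaving out a pool kept the log2 difference between 0.68 and 0.73 but moved that adjusted p in limma to 0.11 without Intact replicate 1, 0.074 without replicate 2 and 0.065 without replicate 4. It moved to 0.11, 0.10, 0.13 and 0.11 by limma without SVX/VAS replicates 1, 2, 3 and 4, and stayed below the threshold, at 0.049, without Intact replicate 3. The mouse genome holds processed pseudogenes of Mif, of which the RefSeq table lists 3, and none of these has a cluster of its own among the named rows. Signal from such copies in the Mif probes was not tested.

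Ddt, which encodes the second cytokine of the family (cluster 17241912), had log2 values of 6.88, 7.01, 7.01 and 6.96 in Intact replicates 1 to 4. Its SVX/VAS values were 6.83, 6.94, 6.85 and 7.04. The groups overlapped, and the highest of all 8 values came from an SVX/VAS pool. The log2 difference was 0.05 (SE 0.089), with a 95% interval of -0.15 to 0.25.

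**Figure D1:**
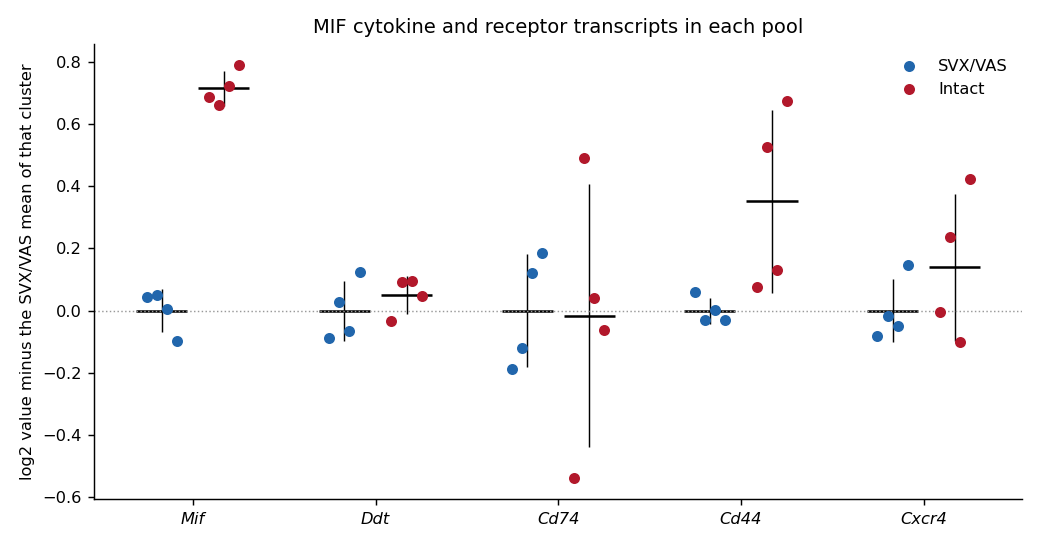
Log2 value of each pool minus the SVX/VAS mean of the same cluster, for Mif, Ddt, Cd74, Cd44 and Cxcr4 (blue, SVX/VAS; red, Intact; 4 pools each, drawn in the order of the replicate numbers). Horizontal bars are group means and vertical bars SDs; the Mif groups stand apart by 0.61, the Cd44 groups by 0.02, and the other members overlap.

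No measured gene around Mif passed the adjusted threshold, except that Gstt2 did with limma's intensity trend (adjusted p = 0.046). Of the 10 genes in the 5 places on either side, 9 had a cluster, and 0 of these 9 passed in limma, where 2 had an unadjusted p under 0.05. Gstt2, a theta-class glutathione transferase gene next to Mif, had mean log2 values of 7.64 in Intact and 8.21 in SVX/VAS pools, a difference of -0.57 (SE 0.109, limma adjusted p = 0.10). Its groups did not overlap, and it stood on the opposite side to Mif. Chchd10, a gene for a mitochondrial intermembrane protein, had a log2 difference of 0.42 (SE 0.105, limma adjusted p = 0.17), also with groups that did not overlap. For the remaining 7, Ddt among them, the differences ran from -0.21 (Derl3, an endoplasmic reticulum degradation factor) to 0.15 (Smarcb1, a chromatin remodelling subunit), and all 7 overlapped between the groups.

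**Figure D2:**
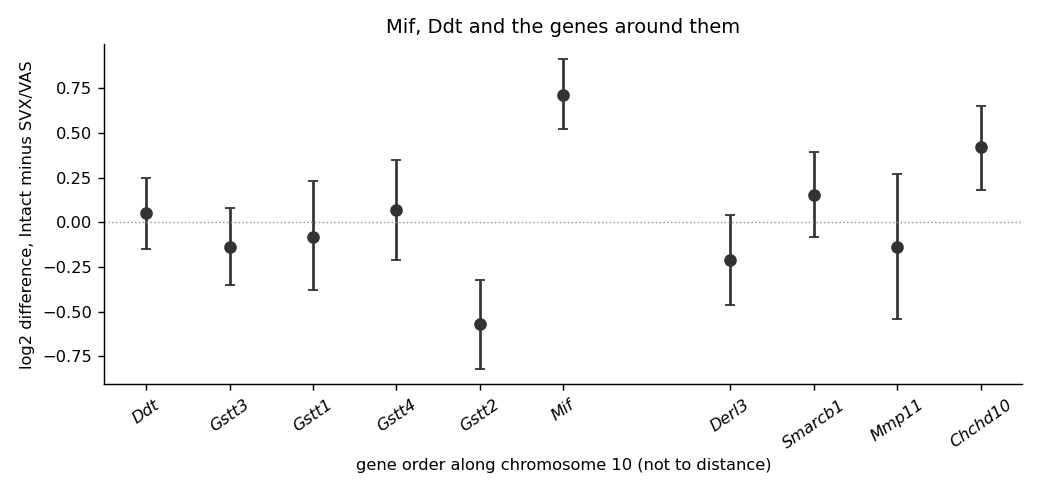
Log2 difference, Intact minus SVX/VAS, with its 95% interval (vertical bars, limma), for Mif and the 9 measured genes within 5 places of it, in gene order along chromosome 10. Mif stands at 0.71, its neighbour Gstt2 at -0.57 and Ddt, 5 places away, at 0.05.

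Cd74 (cluster 17350982) encodes the receptor that binds MIF and D-dopachrome tautomerase, and the same protein escorts MHC class II molecules in antigen-presenting cells. Its log2 values were 7.17, 8.20, 7.75 and 7.65 in Intact replicates 1 to 4 and 7.52, 7.59, 7.83 and 7.89 in SVX/VAS replicates 1 to 4. Both the lowest and the highest of the 8 values were in Intact pools, replicates 1 and 2, and the SVX/VAS values lay between them. The log2 difference was -0.02 (SE 0.202, 95% interval -0.47 to 0.44), so that anything from 1.39-fold lower to 1.36-fold higher lay within the interval. Without Intact replicate 1 it was 0.16, and without Intact replicate 2 it was -0.19.

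Cd44 (cluster 17388733) encodes the hyaluronan receptor that passes on the CD74 signal. Its log2 values were 5.81, 6.26, 5.86 and 6.40 in Intact replicates 1 to 4. In SVX/VAS replicates 1 to 4 they were 5.79, 5.70, 5.73 and 5.70. All Intact pools lay above all SVX/VAS pools, but by a gap of 0.02 only, because Intact replicates 1 and 3 stood close to the SVX/VAS pools and replicates 2 and 4 far above them. The SD was 0.294 among Intact pools and 0.042 among SVX/VAS pools (n = 4 each). The log2 difference was 0.35 (SE 0.143, 95% interval 0.03 to 0.67), a ratio of 1.28-fold. This interval is not adjusted for the number of clusters. The limma adjusted p was 0.38, and the p-value in the authors' deposited table was 0.056. The difference ran from 0.24 without Intact replicate 4 to 0.44 without Intact replicate 1.

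Cxcr4 (cluster 17226593) encodes the chemokine receptor for CXCL12, which MIF can also engage. Its log2 values were 6.98, 7.22, 6.89 and 7.41 in Intact replicates 1 to 4 and 6.91, 6.97, 6.94 and 7.13 in SVX/VAS replicates 1 to 4. The groups overlapped, and the Intact pools highest for Cxcr4 were those highest for Cd44, replicates 4 and 2. The log2 difference was 0.14 (SE 0.130, 95% interval -0.15 to 0.43). Among the 5 members, 1, the selected Mif, lay under the adjusted threshold where 0.0822% of all clusters did, and 2 had Intact pools wholly above SVX/VAS pools where 3.37% of all clusters did. By the submitters' criteria, a difference of 1.5-fold or more and an unadjusted p below 0.05, Mif qualified and the other 4 did not, where 0.733% of all clusters qualified as higher and 1.12% as lower. Since the comparison itself brought the family forward, nothing is read from these counts. The median log2 difference of the 5 was 0.14, beside 0.0005 over all clusters.

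How the members varied together within the groups was described on deviations from the group means, which leave out the group difference. The p-value that helped pick Mif also depends on its spread within the groups (pooled SD 0.063). The deviations of Mif are therefore not free of that selection. Each correlation is over 8 pools, whose values share an array, and 185 such correlations were computed. Cd44 and Cxcr4 deviated together (Pearson r = 0.84, Spearman rho = 0.69), and r was 0.67 without the 2 pools farthest out in Cd44. Ddt and Cd74 had r = 0.61 (rho 0.71, and r = 0.60 without the 2 farthest pools). Mif had r = -0.48 with Ddt, -0.38 with Cd74, 0.32 with Cd44 and 0.00 with Cxcr4. Without the 2 pools farthest out in Mif these were -0.12, -0.35, -0.02 and -0.25. Intact replicate 4 was the highest Intact pool for Mif, Cd44 and Cxcr4 alike, whereas SVX/VAS replicate 4 was the lowest SVX/VAS pool for Mif and the highest for Cxcr4. The joint deviation of Cd44 and Cxcr4 was that of the Intact pools, since among SVX/VAS pools the one highest for Cxcr4 was not high for Cd44.

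Cd74 followed the macrophage markers within the groups (r = 0.89 with the mean of 6 genes, rho 0.90, and 0.73 without the 2 farthest pools). Those 6 markers had mean log2 values of 6.39 to 7.01 in Intact and 6.55 to 7.01 in SVX/VAS pools, and 0 of 6 passed the adjusted threshold in limma, with 0 at an unadjusted p under 0.05. The macrophage list was not alone: r was 0.80 with the leukocyte marker Ptprc (0.88 without the 2 farthest pools). It was 0.82 with the stromal, 0.79 with the smooth muscle and 0.75 with the endothelial list. Without the 2 farthest pools the stromal, smooth muscle and endothelial lists had 0.71, 0.47 and 0.67. For other antigen-presenting cells the sign depended on the 2 farthest pools. The r of Cd74 was -0.75 with the B cell list (rho -0.43) but 0.30 without these pools. With the dendritic cell list it was -0.14 (rho 0.14) but 0.49 without them. With the epithelial list it was -0.42 (-0.61 without them). Cd44 and Cxcr4 had r = 0.77 and 0.80 with the smooth muscle list (0.46 and 0.86 without the 2 farthest pools). That list stood highest in Intact replicates 4 and 2, at 8.61 and 8.54, and at 7.26 and 7.79 in Intact replicates 1 and 3. With neutrophil markers Cd44 and Cxcr4 had r = 0.57 and 0.69 (0.84 and 0.72 without the 2 farthest pools). The 6 neutrophil genes had a mean log2 value of 4.93 to 5.47 in Intact and 4.77 to 5.02 in SVX/VAS pools, with 0 of 6 past the adjusted threshold in limma and 3 at an unadjusted p under 0.05. Those 3 went both ways, S100a8 at 0.70 and Cxcr2 at 0.54, and Ly6g at -0.37 with groups that did not overlap. Mif had its highest r with the epithelial list (0.72, rho 0.74, and 0.54 without the 2 farthest pools), whose range in Intact pools held that of SVX/VAS pools. Its r was -0.69 with the leukocyte marker (-0.45 without the 2 farthest pools) and -0.54 with the dendritic cell list (-0.52). The part of these cell mixtures in the members' differences was not tested.

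**Figure D3:**
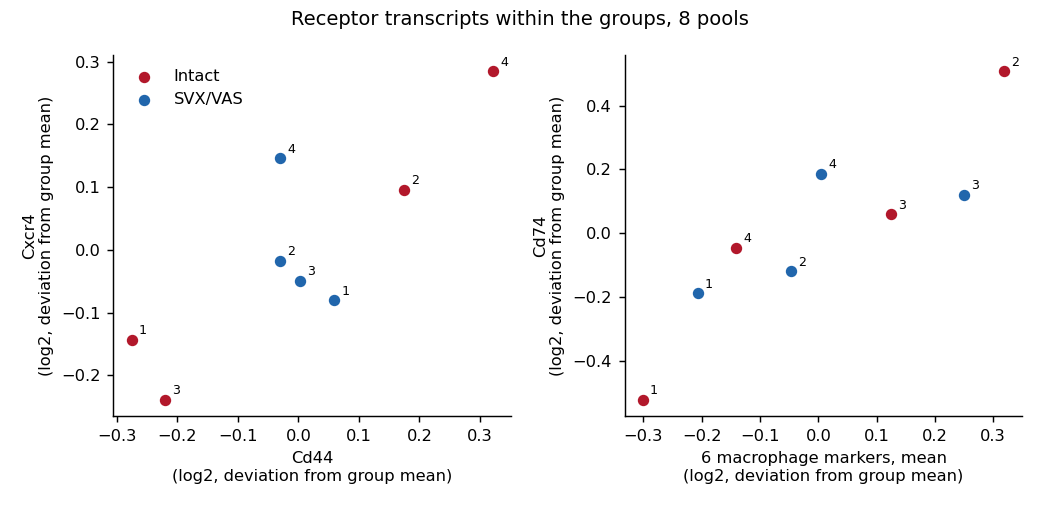
Deviation of each pool from its group mean on the log2 scale (red, Intact; blue, SVX/VAS; numbers are replicates). Left, Cxcr4 against Cd44 (r = 0.84); right, Cd74 against the mean of 6 macrophage markers (r = 0.89); Intact replicates 1 and 2 mark the extremes on the right.

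By the likeness of their profiles over all 8 arrays, the named clusters nearest to Mif were Gsta4, a glutathione transferase that clears lipid peroxidation products (r = 0.99), and Aacs, acetoacetyl-CoA synthetase, which feeds ketone bodies into lipid synthesis (r = 0.98). Next came Ndufa4, a respiratory chain subunit (r = 0.98), and Glipr2, a Golgi-associated protein gene (r = 0.98). These profiles share the group difference. Gsta4 rose by 0.84 on the log2 scale (SE 0.089, limma adjusted p = 0.021) and Aacs by 0.78 (SE 0.095, limma adjusted p = 0.033), while Ndufa4 (0.37, adjusted p = 0.14 in limma) and Glipr2 (0.60, adjusted p = 0.057 in limma) did not pass. With 1 pool left out at a time, the limma adjusted p of Gsta4 was 0.026 without Intact replicate 3 and 0.057 to 0.11 without any other pool, and that of Aacs 0.051 to 0.14 whichever pool was left out. On deviations from the group means, the nearest were Irak4, a kinase of the Toll-like receptor pathway (r = 0.99), H2-T10, a non-classical MHC class I gene (r = 0.98), Heatr3 (r = 0.97) and Slc2a2, a glucose transporter gene (r = 0.97). None of these 4 passed the adjusted threshold in limma (adjusted p from 0.64 to 0.86). For Cd74 the nearest on both measures included Lzts2 (r = 0.98 over all arrays) and Sdc3, a heparan sulfate proteoglycan gene (r = 0.97). Entpd1, the ectonucleotidase CD39 of leukocytes and endothelium (r = 0.97), and Meg3 (r = 0.97) completed the first set. Cblb, a ubiquitin ligase of lymphocytes, and Lcp1, the leukocyte actin-bundling protein, joined the set on deviations, with r = 0.99 and 0.97. With 27037 named clusters and 8 points such values are easily met: the nearest cluster of each of the 5 members had r of 0.98 or 0.99 over all arrays.

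Further receptors and binding partners of MIF gave no call. Of 8 such genes, 0 rose and 0 fell at the adjusted threshold in limma and 1 had an unadjusted p under 0.05, with a median log2 difference of -0.08 beside 0.008 over all named clusters. Cxcr2, the neutrophil chemokine receptor that MIF also binds, had log2 values of 6.35, 6.33, 5.90 and 6.15 in Intact replicates 1 to 4. In SVX/VAS replicates 1 to 4 its values were 6.13, 5.62, 5.60 and 5.22. The groups overlapped through SVX/VAS replicate 1, with a difference of 0.54 (SE 0.191, limma adjusted p = 0.30). Ackr3, the atypical receptor for MIF and CXCL12, listed as Cxcr7 in the files, had a difference of 0.22 (SE 0.169). Prdx1 and Txn1, redox proteins known to bind MIF, had -0.15 (SE 0.092) and 0.13 (SE 0.111), and a second Prdx1 cluster disagreed in sign at 0.10 (SE 0.110). That second cluster had the stronger signal, with mean log2 values of 10.06 in Intact and 9.96 in SVX/VAS pools. The first had 5.12 and 5.28.

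Kinases and adaptors that carry signals from CD74, CD44 and CXCR4 showed none past the threshold either, 0 of 18 in limma, with 3 at an unadjusted p under 0.05 and a median log2 difference of -0.02. Jak2, a cytokine receptor kinase, had values of 9.99 to 10.15 in Intact and 10.49 to 10.67 in SVX/VAS pools. Its groups did not overlap, and the difference was -0.54 (SE 0.087, limma adjusted p = 0.069). Lyn, a Src-family kinase, lay on the other side with 0.59 (SE 0.117, limma adjusted p = 0.11), and both Jak2 and Lyn passed with limma's intensity trend (adjusted p of 0.021 and 0.047). Below 0 again was Pik3ca, a catalytic subunit of PI3 kinase, at -0.35 (SE 0.097, limma adjusted p = 0.20). Arrb2, a beta-arrestin, had 0.17 (SE 0.097) with groups that overlapped.

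Genes reported to respond to MIF were the list with calls: 2 of 16 rose in limma, where 0.0508% of all clusters did. In the same fit 0 fell, where 0.0314% of all clusters did, and 14 did not pass. An unadjusted limma p under 0.05 was met by 10 of the 16, where 11.9% of all clusters met it. Tlr4 was among these and was lower. The median log2 difference was 0.27. The list was written with earlier results of these data known and holds cytokines that many other signals induce, so it is not independent evidence of its direction. Ccnd1, cyclin D1, had log2 values of 7.84, 7.64, 7.48 and 7.83 in Intact replicates 1 to 4 and of 6.84, 6.86, 6.89 and 6.75 in SVX/VAS replicates 1 to 4. The groups stood apart, and Ccnd1 rose by 0.86 (SE 0.106, limma adjusted p = 0.033). Il1b, the inflammatory cytokine interleukin-1 beta, had values of 6.48, 7.02, 6.46 and 7.32 against 5.35, 5.15, 4.48 and 4.87 in the same order, and rose by 1.86 (SE 0.243, limma adjusted p = 0.042). The Il1b groups did not overlap, and its highest Intact pools were again replicates 4 and 2.

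Without 1 pool at a time, limma kept both calls in the absence of Intact replicate 3 alone (adjusted p of 0.026 for Ccnd1 and 0.047 for Il1b). Without Intact replicates 1, 2 and 4 the adjusted p in limma was 0.13, 0.098 and 0.070 for Ccnd1 and 0.11, 0.13 and 0.070 for Il1b. Without SVX/VAS replicates 1 to 4 it was 0.14, 0.11, 0.13 and 0.12 for Ccnd1 and 0.10, 0.11, 0.13 and 0.13 for Il1b, again by limma.

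Tnf had a difference of 1.26 (SE 0.245, limma adjusted p = 0.11) and Il6 of 0.68 (SE 0.171, limma adjusted p = 0.17), neither past the threshold. The Il6 values were low, with means of 3.30 in Intact and 2.63 in SVX/VAS pools. Both lay under 4.21, the lower quartile of the means of all clusters. In 7 of the 16 genes, Il6 among them, Intact pools lay wholly above SVX/VAS pools, where 3.37% of all clusters did. In 1, Tlr4, Intact pools lay wholly below, where 4.81% did. Within the groups the mean of the list followed Cd44 (r = 0.84, and 0.74 without the 2 farthest pools) and Cxcr4 (r = 0.65, and 0.54). With Cd74 its r was 0.74, but -0.04 without the 2 farthest pools. With Mif its r was 0.17 (-0.17 without the 2 farthest pools).

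**Figure D4:**
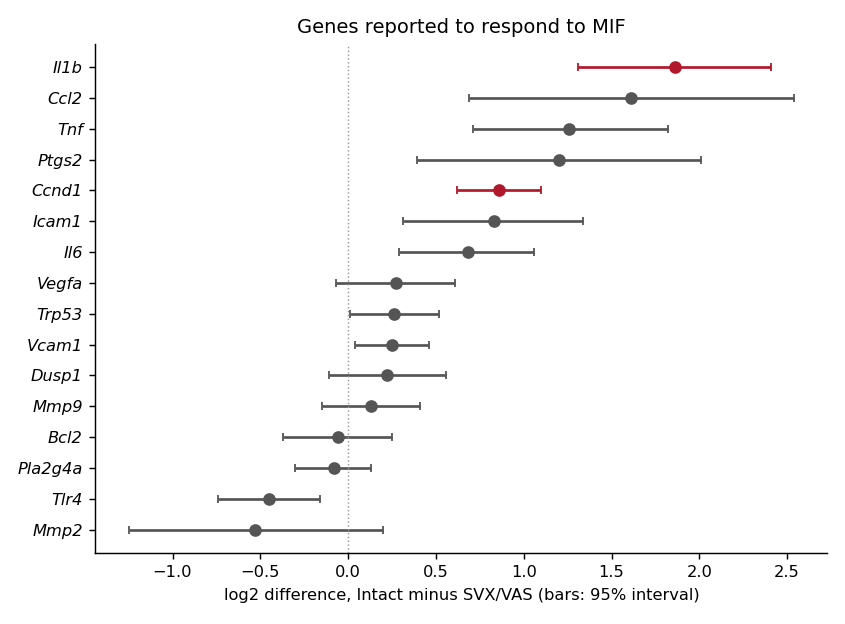
Log2 difference, Intact minus SVX/VAS, for the 16 genes reported to respond to MIF, with 95% intervals (horizontal bars, limma, 4 pools a group). Red marks the 2 genes past the adjusted threshold, Il1b at 1.86 and Ccnd1 at 0.86; the lowest points are Tlr4 at -0.45 and Mmp2 at -0.53.

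Known regulators of Mif transcription gave no call, 0 of 8 in limma with 1 at an unadjusted p under 0.05. Nr3c1, the glucocorticoid receptor gene, had a difference of -0.31 (SE 0.092, limma adjusted p = 0.23) with groups that did not overlap. Hif1a, whose protein pairs with ARNT to bind hypoxia response elements, had 0.21 (SE 0.101). Creb1, whose protein binds cAMP response elements, had 0.17 (SE 0.095), and the groups overlapped for both. Further Hif1a clusters gave 0.06 (SE 0.119) and 0.26 (SE 0.151). Nfkb1 stood at 0.17 (SE 0.098). Transcript levels of these factors do not measure their binding, and binding at the letters marked in the Mif sequence was not tested.

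MHC class II genes, which are known to share regulation and function with Cd74, gave no call: 0 of 16 passed in limma, 1 had an unadjusted p under 0.05 and the median log2 difference was 0.02. H2-DMb2, a peptide-loading subunit, had 0.37 (SE 0.169), Rfxap, a subunit of the class II promoter factor, 0.23 (SE 0.097), Rfx5, its partner, -0.18 (SE 0.092, and -0.05 on a second cluster), and Ctsl, a protease of invariant chain processing, -0.11 (SE 0.101). Within the groups the list mean followed Cd74 (r = 0.78, rho 0.81, and 0.59 without the 2 farthest pools). Over all 8 pools its members did so unequally. The r was 0.80 for Ctss, the protease that trims the invariant chain, 0.75 for H2-Ab1, 0.42 for H2-Aa and 0.14 for H2-Eb1. Without the 2 farthest pools these genes were close to each other, at 0.61, 0.66, 0.55 and 0.65 in that order. Others ran against Cd74, with r = -0.73 for H2-Ob and -0.59 for H2-Oa, the subunits that restrain peptide loading. It was -0.60 for Sppl2a, an invariant chain protease, and -0.29 for Ctsl. Without the 2 farthest pools r for H2-Ob, H2-Oa, Sppl2a and Ctsl was -0.48, -0.49, -0.44 and -0.55.

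The hyaluronan genes and CD44 partners gave 0 calls of 18 in limma, 1 at an unadjusted p under 0.05 and a median log2 difference of -0.02. Spp1, which encodes the CD44 ligand osteopontin, had 0.28 (SE 0.141), and Ptx3, a pentraxin of the hyaluronan matrix, 0.20 (SE 0.119), both overlapping between the groups. Of the proteins that tie CD44 to actin, Ezr (ezrin) had 0.15 (SE 0.111) and Rdx (radixin) -0.20 (SE 0.086, limma adjusted p = 0.40), the latter with groups that did not overlap.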

How the data were processed

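Endometrial RNA of 2 groups of 4 pools was hybridised to 1-colour arrays, grouped and numbered as in the labels. Per the series text and the submitters' processing notes, the authors used RMA background correction, a correction for GC content and probe means in Partek Genomics Suite 6.6. For the genome build, the sources used here name none. The log2 values deposited by the authors for each array gave group differences equal to log2 of their deposited ratio, to within 5.951e-05 over 41345 clusters, which fixes scale and direction. The p-value deposited by the authors is of the same comparison, per the file headers, which name no adjustment. It was read as unadjusted, since after Benjamini-Hochberg adjustment it gave the same counts as the methods' t-test, 8 higher and 2 lower. The score columns deposited with it, which hold F statistics and sums of squares, were not used.

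The values were fitted without further normalization by limma 3.58.1 in R 4.3.3 (lmFit and eBayes, no covariate), with Benjamini-Hochberg adjustment over all clusters and a threshold of 0.05, two-sided, after a test on simulated data. Where a gene had several clusters, that with the lowest ID stood for it. With 4 arrays a group, the median SE was 0.12, and this number limits precision. Neither detection calls nor scan batches were used.

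The members and the 6 pathway lists and 13 marker lists were chosen with earlier results of these data known. Named genes were the members, up to 4 genes of each pathway list with the smallest p, the 4 nearest profiles of Mif and of Cd74 on each measure, and the 5 genes on either side of Mif. Other genes were named after their values were seen. The RefSeq table of GRCm38.p6 served for names and order, and 6 symbols matched through an older name. Alternatives were median centring, quantile normalization, a filter on low clusters, an intensity trend, the methods' t-test, the authors' deposited p-values, a replicate block and leaving out each pool. Same-numbered pools did not deviate together (correlations from -0.033 to 0.068), so replicate numbers were not taken as pairs.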

Additional observations from a re-analysis of the deposited data

How the results depend on the processing

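All 5 members kept their log2 differences to within 1 SD between pools under the 14 alternatives tried. Most of these settings could not have broken that. Leaving out 1 of 4 pools cannot move a group mean that far. The trend, the filter on low clusters, the replicate block and the authors' ratio leave the difference as it is. Median centring gave 0.71 for Mif, 0.05 for Ddt, -0.02 for Cd74, 0.35 for Cd44 and 0.14 for Cxcr4. Quantile normalization gave 0.72, 0.08, 0.01, 0.36 and 0.16 in that order. Leaving out 1 pool at a time gave 0.68 to 0.73 for Mif, 0.02 to 0.09 for Ddt, -0.19 to 0.16 for Cd74, 0.24 to 0.44 for Cd44 and 0.04 to 0.22 for Cxcr4. The count of clusters called moved far more under some alternatives, and the cause was not tested. From 21 higher and 13 lower it went to 19 and 12 after median centring and to 38 and 16 after quantile normalization. It went to 56 and 75 without low clusters, where fewer clusters were tested, and to 82 and 122 with the trend. The methods' t-test gave 8 and 2 after Benjamini-Hochberg adjustment, as did the authors' deposited p-values, and 303 and 465 at the submitters' own criteria. Leaving out 1 pool at a time gave 2 to 41 higher and 0 to 10 lower. Of the pathway lists, 2 higher and 0 lower became 0 higher with the t-test and the authors' p-values and 0 to 2 when a pool was left out. The trend gave 3 higher, adding Lyn (adjusted p of 0.047), and the trend and the filter on low clusters each added 1 lower, Jak2 (adjusted p of 0.021 and 0.038). The trend also called Gstt2, beside Mif, as lower (adjusted p of 0.046). With the replicate block limma called 0 clusters in all and 0 list genes; the numbers are shared labels only. Detection above background was not measured, and all 5 members passed the filter on low clusters.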
